A study of Mus musculus with 24 samples.

Results

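The genes described here are 41 mouse interferon response genes, a list set by gene symbol: interferon-induced antiviral proteins, the sensors and transcription factors of the pathway, antigen processing genes and interferon-induced GTPases. Of the 41, 39 have a row in the count table and all 39 passed the filter on low counts, among 13501 genes tested and 21878 rows in all. Mx1 and Mx2 were not analysed here. The 39 were measured by RNA sequencing in hearts taken 3 weeks after myocardial infarction from mice without ovaries (OVX). Every group carried the AAV9 vector, a virus used to bring genes into heart muscle, and every group had the infarction. The groups were AAV9-OE miR-21 with swimming (miR-21 swim, 5 libraries), AAV9-OE miR-21 without swimming (miR-21 control, 6), AAV9-Empty with swimming (empty swim, 6) and AAV9-Empty without swimming (empty control, 6). Swimming came before the infarction. Age, strain, the promoter of the vector and whether mice were pooled are not stated in the labels, and no group without infarction or vector was analysed here. The labels do not state that every library is a separate mouse, so the p-values measure the spread between these samples, which may be technical.

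Cells that sense foreign or misplaced nucleic acid make type I interferon, which binds its receptor on neighbouring cells and activates the kinases Jak1 and Tyk2. Stat2 and Irf9 then act in the nucleus at the interferon-stimulated response element, found in the promoters of many genes. Interferon gamma acts through another element, the gamma-activated site. In the infarcted heart, the response is known from infiltrating macrophages and from other heart cells exposed to nucleic acid of dying cells.

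The promoters of the members on which the results turn are shown first, since the members are defined by a shared response to interferon. RefSeq promoters (build GRCm38.p6, 250 bases before to 50 after the start, 300 in all) were found for 31 of the 41 members. GAAANNGAA, the core of the interferon-stimulated response element, searched on both strands, was present in a promoter of 17 of the 31 members (54.8%), against 9.76% of all 27025 genes in the table. TTCNNNGAA, the gamma-activated site, searched in the same way, was in 10 of the 31 (32.3%), against 9.55% of genes. Counted by gene among the members with a promoter, the core was in at least 1 promoter of 4 of 4 GTPase genes, 3 of 3 nucleic acid sensors and 2 of 3 IFIT genes. It was in 5 of 9 other antiviral genes, 1 of 2 genes of the ISG15 system and 1 of 3 oligoadenylate synthetases. Of the transcription factors 1 of 4 had it, and of the antigen processing genes 0 of 3. The second start of Gbp3 has none. Printed 5′ to 3′ on the gene's strand, with matches to GAAANNGAA on either strand in capitals, are 4 members with a match and Cmpk2, whose window holds none. They are Ifit1 (chr19:34640639-34640938, plus strand), Gbp3 (first of its 2 starts, chr3:142559794-142560093, plus), Eif2ak2 (chr17:78882523-78882822, minus), Ifi44 (chr3:151749861-151750160, minus) and Cmpk2 (chr12:26468965-26469264, plus).
Ifit1: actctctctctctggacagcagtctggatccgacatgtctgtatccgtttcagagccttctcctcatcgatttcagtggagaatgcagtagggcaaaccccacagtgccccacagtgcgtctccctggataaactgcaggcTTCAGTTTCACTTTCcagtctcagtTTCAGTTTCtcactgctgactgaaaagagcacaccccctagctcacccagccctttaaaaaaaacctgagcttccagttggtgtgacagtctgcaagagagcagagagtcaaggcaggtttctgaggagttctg
Gbp3: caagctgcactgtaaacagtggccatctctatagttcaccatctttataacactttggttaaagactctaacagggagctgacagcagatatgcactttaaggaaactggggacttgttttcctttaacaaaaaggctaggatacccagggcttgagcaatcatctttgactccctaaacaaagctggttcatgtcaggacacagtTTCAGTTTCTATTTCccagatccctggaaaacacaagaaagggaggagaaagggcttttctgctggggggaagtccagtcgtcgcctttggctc
Eif2ak2: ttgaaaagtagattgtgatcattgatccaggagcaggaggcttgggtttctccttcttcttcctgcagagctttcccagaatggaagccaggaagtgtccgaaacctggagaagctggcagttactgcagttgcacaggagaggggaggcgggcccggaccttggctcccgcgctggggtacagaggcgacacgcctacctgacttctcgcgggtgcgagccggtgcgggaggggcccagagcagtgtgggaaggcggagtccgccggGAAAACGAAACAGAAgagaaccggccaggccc
Ifi44: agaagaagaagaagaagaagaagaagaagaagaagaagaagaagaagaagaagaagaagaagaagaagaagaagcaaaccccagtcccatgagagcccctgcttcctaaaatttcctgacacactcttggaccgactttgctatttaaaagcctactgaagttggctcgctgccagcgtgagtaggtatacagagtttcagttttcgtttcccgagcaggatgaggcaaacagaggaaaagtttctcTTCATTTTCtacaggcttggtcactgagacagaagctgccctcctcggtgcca
Cmpk2: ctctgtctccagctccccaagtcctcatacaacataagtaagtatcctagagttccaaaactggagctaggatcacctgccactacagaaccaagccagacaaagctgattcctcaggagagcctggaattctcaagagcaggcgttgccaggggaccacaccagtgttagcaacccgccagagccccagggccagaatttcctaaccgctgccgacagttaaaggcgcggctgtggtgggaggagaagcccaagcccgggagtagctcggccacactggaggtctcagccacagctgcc
The matches begin 109, 103 and 84 bases before the start in Ifit1, 44 and 38 before it in Gbp3, 3 before it in Ifi44, and 19 and 25 after it in Eif2ak2. Matches in Ifit1, Gbp3 and Eif2ak2 overlap one another. The windows of Xaf1, Ifit2 and Irf9 hold no match to GAAANNGAA either, and a missing match says only that these letters are not in the window.

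The vector product, miR-21, is shown because 2 of the 4 groups were given the vector labelled AAV9-OE miR-21 (RefSeq, GRCm38.p6, chromosome 11, seed bases 2 to 8 in capitals).
miR-21a-5p: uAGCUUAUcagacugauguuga
The DNA word ATAAGCT, which pairs with the seed, was present in the 3′ untranslated region of 2 of the 41 members, Herc6 and Rsad2, and in 7.55% of 20988 annotated genes.

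Libraries held 12744241 to 14657630 counts. Of the 23, 3 stood apart: miR-21 swim replicate 2 and empty control replicates 2 and 5 had the highest adipocyte marker scores. The same 3 had the most macrophage marker counts, 2787, 2827 and 1816 CPM (counts scaled to library size by TMM) summed over 16 markers, against 443 to 1227 in the other 20. Over 7 neutrophil markers they had 1011, 290.2 and 211 CPM, against at most 65.8 elsewhere. The sample titles carry a lower and a higher series of numbers. Both groups without swimming are in the lower series, empty swim is in the higher, and miR-21 swim has both (replicates 1 and 2 lower, 3 to 5 higher). Swimming and number series therefore cannot be told apart under the empty vector. A term for the series, which leaves the miR-21 vector comparisons within 1 series, is given beside the results it changes.

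The members differed widely in level. On the FPKM scale, which is per transcript length, the mean of the group means was highest for Bst2 (tetherin, which holds budding virus at the cell surface, 40.8 FPKM), Ifi27 (25.1) and Psmb8 (22.96), and lowest for Herc6 (2.07), Oasl1 (2.24) and Dhx58 (2.48). Every member was counted in every library, with a lowest count of 21 (Zbp1). Between the lowest and highest library the normalised level differed least in Eif2ak2 (1.63-fold) and most in Zbp1 (13.6-fold). The interferons themselves were at the floor. Of 10 interferon genes with a row, 8 had 0 counts in all 23 libraries, which allows up to 0.00944 CPM over all libraries together (3 counts, counting error only). Ifnb1 had 1 count in all, and Ifng had 17 counts spread over 10 libraries.

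**Figure D1:**
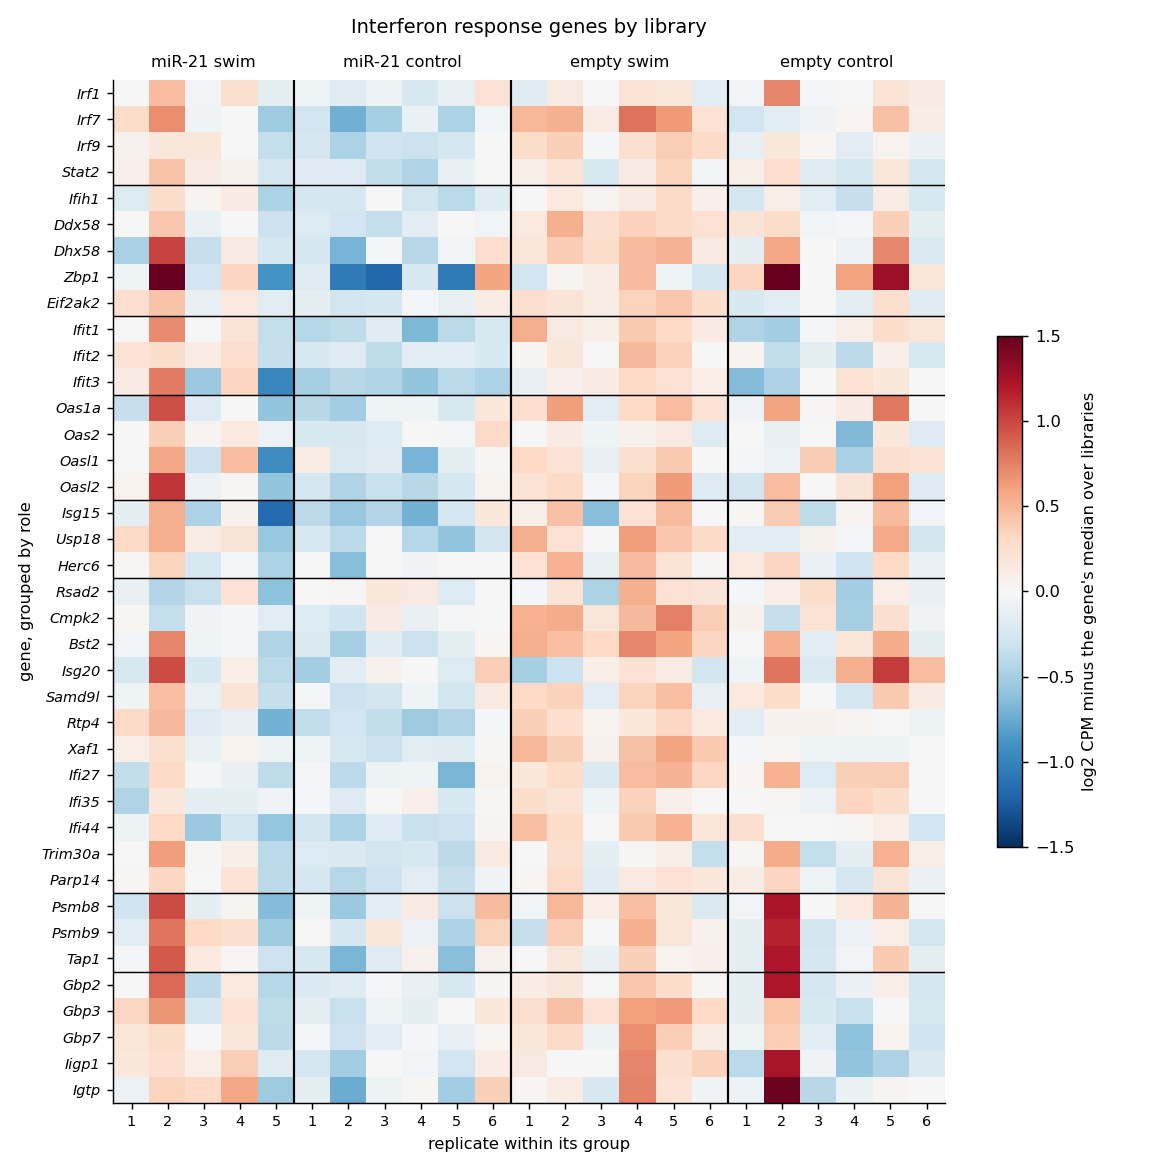
Level of 39 interferon response genes (rows, by role) in 23 libraries (columns, by group), as log2 CPM minus the gene's median over libraries, with values past the colour scale drawn in its end colours. Rows are mostly red in empty swim and mostly blue in miR-21 control, and columns such as miR-21 swim 2 and empty control 2 run red over most rows.

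Within a group, libraries moved over many members at once. Counting how many of the 39 members lay above their own median over all libraries, miR-21 swim libraries had 18, 37, 11, 29 and 0. Libraries of miR-21 control had 0 to 25 (median 3.5), empty swim 17 to 39 (median 33.5) and empty control 7 to 35 (median 13.5). The groups overlap, and the highest libraries of miR-21 swim (replicate 2) and empty control (replicates 2 and 5) are the 3 that stood apart. Replicate 2 of miR-21 swim was the highest library of all for 15 members and replicate 5 of the same group was the lowest for 15. In bulk tissue, fewer cells of a type and less RNA per cell cannot be told apart.

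Swimming under the empty vector asks what training changed in hearts without added miR-21. In empty swim, 5 of the 39 members (12.8%) rose relative to empty control, and 0 fell (edgeR quasi-likelihood, Benjamini-Hochberg adjusted p under 0.05, here called). Of all tested genes, 4.18% were called higher and 3.28% lower. The 5 are Xaf1, Cmpk2, Eif2ak2, Ifit2 and Gbp3, from 4 roles. The median log2 fold change was 0.14 over the 39 members and -0.005 over all genes, with 30 members above 0 and 11 higher and 1 lower at an unadjusted p under 0.05. Of all 13501 tested genes, 1567 were higher and 1581 lower at that p.

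Xaf1, an antagonist of the caspase inhibitor XIAP, had a lowest, median and highest level of 20.04, 25.5 and 29.2 CPM in empty swim, against 18.1, 18.5 and 19.5 CPM in empty control. The groups do not overlap, and the log2 fold change was 0.44 ± 0.08 (SE, adjusted p = 0.00181). Cmpk2, a mitochondrial nucleotide kinase, had 15.7, 19.8 and 23.4 CPM in empty swim, against 9.83, 14.04 and 16.4 CPM in empty control. Its log2 fold change was 0.53 ± 0.12 (adjusted p = 0.00802), and the lowest empty swim library lies within the empty control range. Eif2ak2 (PKR), the kinase that stops translation when it binds double-stranded RNA, had 19.6, 21.6 and 23.8 CPM in empty swim, against 15.4, 16.1 and 21.3 CPM in empty control. Only the highest empty control library, replicate 5, reached the empty swim range, and the log2 fold change was 0.34 ± 0.10 (adjusted p = 0.0408). Ifit2, which binds RNA and limits translation, had 28.2, 30.4 and 39.5 CPM in empty swim, against 21.5, 24.7 and 29.7 CPM in empty control (log2 fold change 0.35 ± 0.10, adjusted p = 0.0451). Gbp3, an interferon-induced guanylate-binding protein, had 28.0, 31.4 and 37.6 CPM in empty swim, against 19.1, 21.2 and 32.3 CPM in empty control (0.49 ± 0.15, adjusted p = 0.0494). The ranges overlap through 2 empty control libraries for Ifit2 and 1 for Gbp3, while all 6 empty swim libraries lie above the empty control mean.

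**Figure D2:**
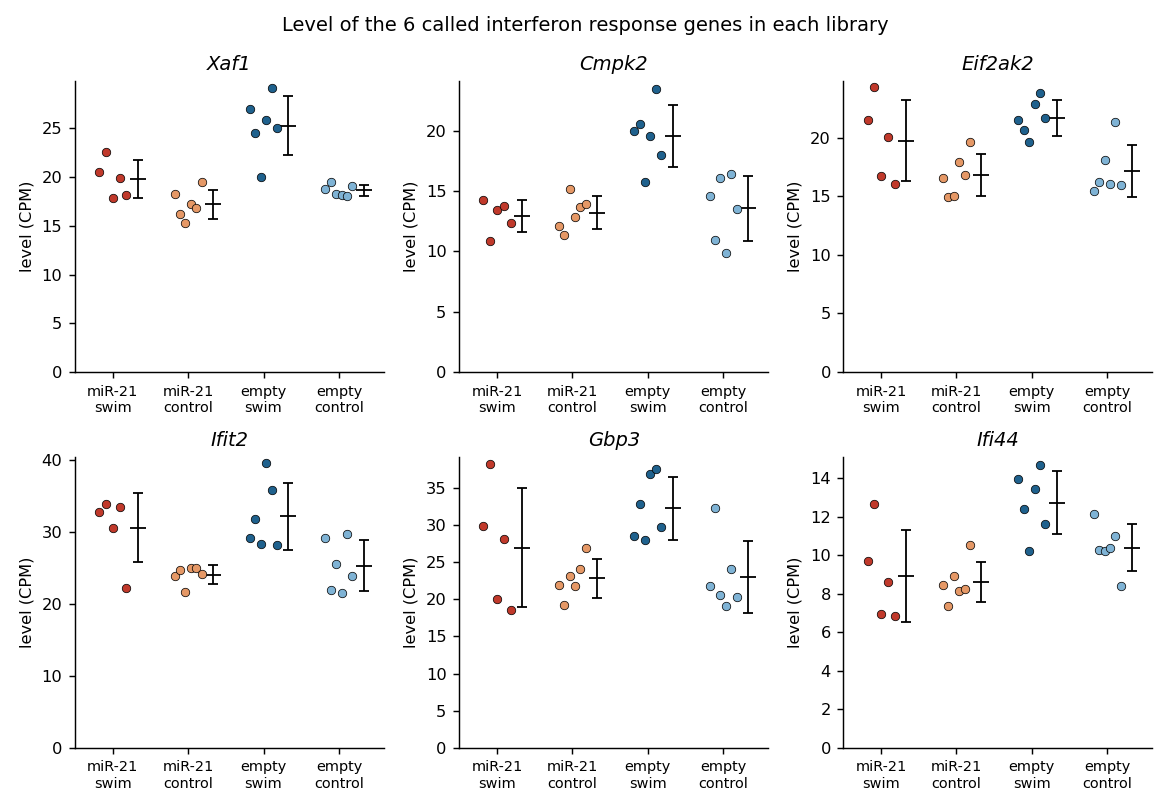
Level (CPM) of the 6 called members in each library, with bars for mean ± SD. In all 6 panels empty swim lies highest on average, and for Cmpk2 the 5 miR-21 swim libraries (10.9 to 14.3) lie below all 6 empty swim libraries (15.7 to 23.4).

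By role, the 4 transcription factors had a median log2 fold change of 0.19 and 0 called. Irf7, the factor that amplifies interferon production, was at 0.46 ± 0.17 (adjusted p = 0.101) and Irf9 at 0.27 ± 0.09 (adjusted p = 0.0624). The 3 IFIT genes were all above 0 (median 0.32, 1 called), as were the 4 oligoadenylate synthetases, which make the activator of RNase L (median 0.09, 0 called), and the 3 genes of the ISG15 system, a ubiquitin-like tag with its ligase Herc6 and protease Usp18 (median 0.17, 0 called). Of the 12 other antiviral genes 2 were called, 1 of the 5 sensors and 1 of the 5 GTPases, where Gbp7 was at 0.37 ± 0.14 (adjusted p = 0.105). The 3 antigen processing genes, the immunoproteasome subunits Psmb8 and Psmb9 and the peptide transporter Tap1, were all below 0 (median -0.18, 0 called). Isg20, an exonuclease that degrades RNA, was at -0.59 ± 0.23 (adjusted p = 0.125).

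Xaf1 and Cmpk2 stayed called when each of the 23 libraries was left out in turn, whereas Eif2ak2 did in 6 of 23, Ifit2 in 8 and Gbp3 in 4. The count was 14 without the 3 libraries that stood apart, and 13 with a leukocyte marker score in the fit or with limma voom with quality weights, which changes the tool and down-weights libraries together. With 1 library left out it ran from 2 to 7, and it was 2 (Xaf1 and Cmpk2) without empty swim 1, 2, 4 or 5, empty control 3, 4 or 6, miR-21 control 1 to 5 or miR-21 swim 4. With the title series as a term, estimated only from miR-21 swim replicates 1 and 2 against 3 to 5, it was 6. Carrying that estimate over to the empty vector is an assumption that was not tested. Cmpk2 (0.45 ± 0.22, adjusted p = 0.394) and Ifit2 (0.56 ± 0.19, adjusted p = 0.183) were not called in that fit, in which their SE was larger and the log2 fold change of Ifit2 was higher. In the authors' deposited table of this comparison, 3 of the 39 members (Cmpk2, Xaf1 and Gbp3) were higher and 0 lower at a q-value under 0.05. The share of all genes called is not given for these alternatives or for the authors' table. Endothelial markers moved with these members: 5 of 14 were called higher and 0 lower, and their summed level was 3063 to 3353 CPM in empty swim, against 2570 to 3016 CPM in empty control, with no marker at 0. Of the macrophage markers 0 of 16 were called, and their median log2 fold change was -0.57. Called higher was 1 of the 3 tested genes among 6 listed plasmacytoid dendritic cell markers, a list with genes that heart tissue also expresses. Called lower were 5 of 7 adipocyte, 2 of 9 T and NK cell, 1 of 8 mesothelial and 1 of 10 fibroblast markers. The part of these markers in the result was not tested.

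The miR-21 vector without swimming asks what miR-21 changed in untrained hearts. None of the 39 members was called in either direction with edgeR, against 0.881% of all genes higher and 1.37% lower. The values lay low as a body: 37 of 39 members were below 0 and the median log2 fold change was -0.28, against -0.005 over all genes. At an unadjusted p under 0.05, 15 members were lower and 0 higher, against 2156 lower and 1672 higher of all 13501 tested genes. DESeq2 called 1 lower (Zbp1) and limma voom with quality weights 0, and the share of all genes called with these tools is not given.

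Parp14, an ADP-ribosyltransferase, had a lowest, median and highest level of 39.1, 43.4 and 50.9 CPM in miR-21 control, against 44.1, 53.8 and 66.0 CPM in empty control (log2 fold change -0.30 ± 0.11, adjusted p = 0.0931). The ranges overlap, and all 6 miR-21 control libraries were below the empty control mean. Zbp1, a sensor of Z-form nucleic acid that can start necroptosis, had 1.77, 2.66 and 6.04 CPM in miR-21 control, against 4.001, 5.54 and 21.9 CPM in empty control (-1.46 ± 0.53, adjusted p = 0.0998). The high end of empty control comes from replicate 2, and without the 3 libraries that stood apart the log2 fold change was -0.66 ± 0.28 (adjusted p = 0.162). Irf9, the DNA-binding part of the type I interferon complex, had 22.9, 26.1 and 31.8 CPM in miR-21 control, against 28.4, 31.1 and 35.8 CPM in empty control (-0.25 ± 0.09, adjusted p = 0.100). Of the 6 miR-21 control libraries, 5 were below the empty control mean.

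Every role had a median below 0. It was lowest for antigen processing (-0.43, 3 genes), the ISG15 system (-0.34), the IFIT genes (-0.33) and the oligoadenylate synthetases (-0.33), and nearest to 0 for the GTPases (-0.22) and the transcription factors (-0.25). The sensors were at -0.28 and the 12 other antiviral genes at -0.29. Gbp7 (-0.01), Gbp3 (-0.01), Eif2ak2 (-0.03) and Cmpk2 (-0.04) lay closest to 0, and Oas2 (0.06) and Rsad2 (0.03), which makes an antiviral nucleotide, were the 2 above it. Of these, Gbp3, Eif2ak2 and Cmpk2 are among the 5 called under swimming, in a comparison that uses the same empty control libraries.

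Several marker lists of other cells lay low in the same comparison. The median log2 fold change was -0.88 over 16 macrophage markers (15 below 0), -1.17 over 10 fibroblast markers (all below 0, each at an unadjusted p under 0.05) and -2.68 over 6 neutrophil markers, with 0 called, and 0.27 over 10 cardiomyocyte markers. Over 14 endothelial markers the median was -0.08, with 5 above 0, 9 below 0 and 0 called. The summed macrophage markers were 443 to 1227 CPM in miR-21 control, against 633 to 2827 CPM in empty control. With the leukocyte marker score in the fit the members' median was -0.10, without the 3 libraries that stood apart it was -0.11, and 0 members were called in either fit. Without miR-21 swim replicate 2, a library outside this comparison, 6 members were called lower. The share of all genes called in that fit is not given.

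The miR-21 vector with swimming asks what miR-21 changed in trained hearts. In miR-21 swim, 3 of the 39 members (7.69%) fell relative to empty swim, Cmpk2, Xaf1 and Ifi44, and 0 rose, against 2.71% of all genes lower and 1.87% higher. The median log2 fold change was -0.15 over the members and 0.02 over all genes, with 30 members below 0 and 9 lower and 0 higher at an unadjusted p under 0.05. This comparison and the one of swimming under the empty vector share the 6 empty swim libraries, so a high empty swim group gives a rise in the first and a fall here.

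Cmpk2 had 14.3, 10.9, 13.4, 13.8 and 12.4 CPM in miR-21 swim, against a lowest, median and highest of 15.7, 19.8 and 23.4 CPM in empty swim. The groups do not overlap, and the log2 fold change was -0.60 ± 0.12 (adjusted p = 0.00704). Xaf1 had 20.5, 22.6, 17.9, 19.9 and 18.1 CPM in miR-21 swim, against 20.04, 25.5 and 29.2 CPM in empty swim. Replicates 1 and 2 of miR-21 swim reached the empty swim range, and the log2 fold change was -0.35 ± 0.08 (adjusted p = 0.0163). Ifi44, an interferon-induced protein, had 9.68, 12.6, 6.95, 8.61 and 6.84 CPM in miR-21 swim, against 10.2, 12.9 and 14.7 CPM in empty swim (-0.50 ± 0.14, adjusted p = 0.0380). Replicate 2 of miR-21 swim alone lies within the empty swim range.

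All 3 called members belong to the 12 other antiviral genes (median -0.31). Next by p were Ifi35 (-0.26 ± 0.10), Ddx58 (RIG-I, a sensor of triphosphate RNA, -0.28 ± 0.11) and Irf9 (-0.24 ± 0.09), each at an adjusted p of 0.139 or more. Medians were -0.26 for the ISG15 system, -0.15 for the sensors, -0.11 for the transcription factors and the GTPases, -0.07 for the IFIT genes and the oligoadenylate synthetases, and 0.04 for antigen processing. Ifit2 (-0.07 ± 0.11), Eif2ak2 (-0.13 ± 0.10) and Gbp3 (-0.26 ± 0.16) were not called here.

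Cmpk2 stayed called in all 32 alternatives and Xaf1 in 31, while Ifi44 was lost when any of 12 of the 23 libraries was left out. The count was 9 without miR-21 swim replicate 2, 13 without the 3 libraries that stood apart, 14 with the leukocyte marker score in the fit, 7 with a term for the title series and 1 with only these 2 groups in the fit. Within the higher series, the 3 miR-21 swim libraries had 12.4 to 13.8 CPM of Cmpk2 and 17.9 to 19.9 CPM of Xaf1, below all 6 empty swim libraries for both. The authors' deposited table of this comparison has 1 member lower at a q-value under 0.05 (Cmpk2) and 0 higher. Neither these alternatives nor the authors' table are given with the share of all genes called. Endothelial markers again moved with the members: 6 of 14 were called lower and 0 higher, with summed levels of 2572 to 2767 CPM in miR-21 swim, against 3063 to 3353 CPM in empty swim. Of the other lists, 5 of 8 mesothelial markers were called higher, and 1 of 7 adipocyte and 1 of 3 tested plasmacytoid dendritic cell markers lower. Heart tissue also expresses genes of the plasmacytoid dendritic cell list. The summed mesothelial markers were 6.98, 206.6, 6.71, 13.8 and 5.52 CPM in miR-21 swim, against 8.03 to 14.1 CPM in empty swim. Only replicate 2 of miR-21 swim lay above the empty swim range. The part of these markers in the result was not tested.

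**Figure D3:**
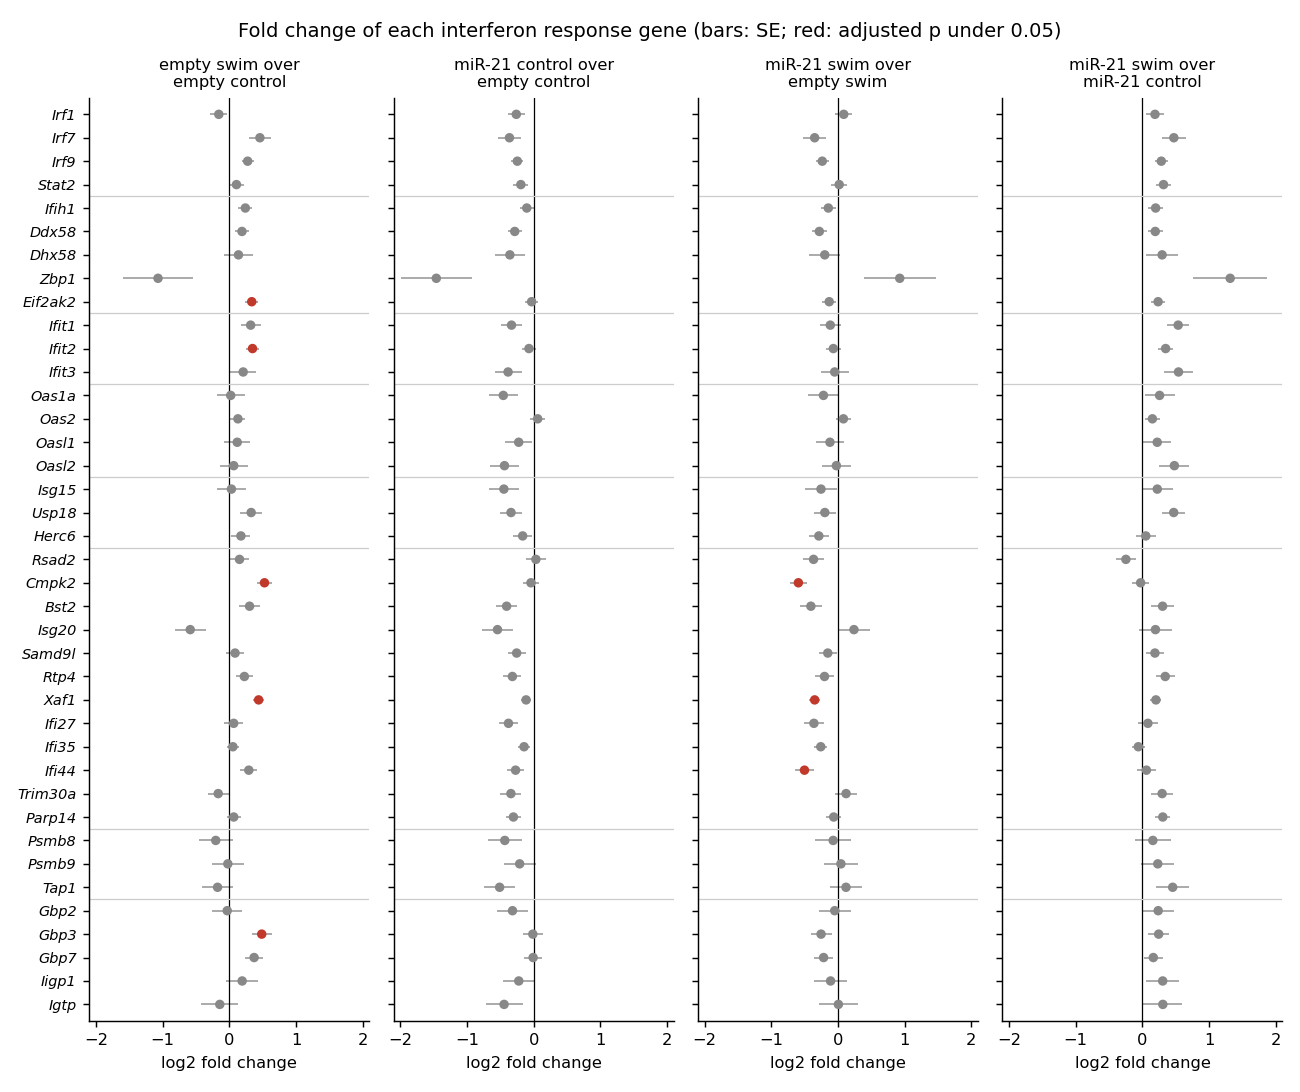
Log2 fold change ± SE of each member in the 4 comparisons of groups, with called members in red and roles separated by lines. Red points are at 5 genes for empty swim over empty control and at 3 for miR-21 swim over empty swim, and points lie left of 0 for 37 of 39 genes in miR-21 control over empty control.

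Swimming under the miR-21 vector gave 0 members called in either direction with edgeR, DESeq2 and limma voom with quality weights, where edgeR called 0.0518% of all genes higher and 0.119% lower. In miR-21 swim relative to miR-21 control, 36 of the 39 members were above 0, with a median log2 fold change of 0.24, against 0.03 over all genes, and 13 were higher and 0 lower at an unadjusted p under 0.05. Over all 13501 tested genes, 1284 were higher and 1248 lower at that p. Ifit1, which binds RNA whose cap lacks the host's methyl mark, had 12.0, 19.8, 12.1, 13.9 and 9.47 CPM in miR-21 swim, against a lowest, median and highest of 7.59, 9.23 and 10.6 CPM in miR-21 control (0.54 ± 0.16, adjusted p = 0.110). Ifit2 had 32.7, 33.9, 30.6, 33.5 and 22.2 CPM in miR-21 swim, against 21.6, 24.4 and 25.0 CPM in miR-21 control (0.35 ± 0.11, adjusted p = 0.122). For both genes replicate 5 of miR-21 swim lies in the miR-21 control range and its other libraries lie above it. Irf9 had 33.2, 35.8, 35.7, 31.5 and 24.7 CPM in miR-21 swim, against 22.9, 26.1 and 31.8 CPM in miR-21 control (0.28 ± 0.09, adjusted p = 0.142), and its replicates 4 and 5 lie within the miR-21 control range.

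The IFIT genes had the highest median of the roles (0.54), then the transcription factors (0.30), the GTPases (0.24), the oligoadenylate synthetases (0.24), the sensors (0.23), antigen processing (0.23), the ISG15 system (0.22) and the other antiviral genes (0.19). Below 0 were Rsad2 (-0.25 ± 0.16), Ifi35 (-0.06 ± 0.10) and Cmpk2 (-0.03 ± 0.12). Several marker lists of other cells lay above 0 as well: 16 of 16 macrophage markers (median 0.52), 10 of 10 fibroblast markers (0.38), 6 of 6 neutrophil markers (3.58) and 5 of 5 B cell markers (1.67, each at an unadjusted p under 0.05), with 0 called in these lists. Replicate 2 of miR-21 swim had the highest sums of its group, at 2787, 5890, 1011 and 64.7 CPM in the same order. The median sums in miR-21 swim were 543, 1488, 44.9 and 5.23 CPM. In miR-21 control they were 660, 1729, 11.7 and 4.77 CPM, so the median library was lower in miR-21 swim for macrophage and fibroblast markers. Other lists did not lie above 0: 9 of 10 cardiomyocyte markers (median log2 fold change -0.16) and 8 of 14 endothelial markers (-0.03) were below it, with 0 called. The part of these markers in the result was not tested. Replicate 2 of miR-21 swim also had 37 members above their median and the highest neutrophil markers of all libraries. Without it, the median log2 fold change of the members was 0.09 and 0 were called. Without replicate 5 it was 0.36 and Ifit2 was called. With the title series as a term, which sets replicates 1 and 2 against miR-21 control, 10 were called higher. The share of all genes called in these fits is not given.

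Whether swimming acted differently under the vectors was tested as the interaction, the difference between miR-21 swim over miR-21 control and empty swim over empty control. It called 0 members with edgeR, against 0.326% of all genes higher and 0.215% lower, with 2 members higher and 2 lower at an unadjusted p under 0.05. At that p, 1720 of all 13501 tested genes were higher and 1179 lower. DESeq2 called Zbp1 higher and Cmpk2 lower, and limma voom with quality weights called 0, without the share of all genes called with these tools. With edgeR, the smallest p was as follows. Cmpk2 had the smallest p, with an interaction of -0.55 ± 0.17 (adjusted p = 0.0899): its swimming log2 fold change was -0.03 under the miR-21 vector and 0.53 under the empty vector. Zbp1 was at 2.39 ± 0.76 (adjusted p = 0.100). Its 5 miR-21 swim libraries had 3.83, 24.1, 3.28, 5.01 and 2.14 CPM, and its empty swim libraries a lowest, median and highest of 3.29, 3.97 and 5.57 CPM. Replicate 2 alone stands high, and without the 3 libraries that stood apart the interaction of Zbp1 was 0.47 ± 0.40. Isg20 had 4.80, 11.2, 4.84, 6.04 and 4.28 CPM in miR-21 swim, and a lowest, median and highest of 3.98, 5.36 and 7.32 CPM in miR-21 control, 4.01, 5.34 and 6.54 CPM in empty swim and 4.86, 8.02 and 11.7 CPM in empty control. The 2 vectors overlap throughout for this gene, and its interaction of 0.78 ± 0.34 (adjusted p = 0.186) was 0.18 ± 0.26 without the 3 libraries. An interaction that misses the threshold does not show that swimming acted alike under both vectors.

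The other genes of the pathway were read from a list of 46, of which 36 were tested. Under the empty vector 2 of the 36 (5.56%) rose and 1 (2.78%) fell with swimming, near the 4.18% and 3.28% of all tested genes. Il10rb, a receptor subunit shared by lambda interferon and the interleukin-10 family, averaged 144 ± 5.89 CPM in empty swim and 104 ± 11.9 CPM in empty control (SD, n = 6 each, log2 fold change 0.47 ± 0.10, adjusted p = 0.00525). Ifngr2, the signalling subunit of the interferon gamma receptor, averaged 187 ± 9.01 CPM in empty swim and 152 ± 15.1 CPM in empty control (0.30 ± 0.08, adjusted p = 0.0252). Traf3, an adaptor of the nucleic acid sensors, averaged 30.8 ± 3.86 CPM in empty swim and 40.8 ± 4.80 CPM in empty control (-0.41 ± 0.12, adjusted p = 0.0485), and was called in 9 of 32 alternatives, with adjusted p-values up to 0.691. The same 2 receptor genes were called higher with the miR-21 vector without swimming, Ifngr2 at 189 ± 12.4 CPM in miR-21 control (0.31 ± 0.08, adjusted p = 0.0440) and Il10rb at 134 ± 3.18 CPM in miR-21 control (0.36 ± 0.10, adjusted p = 0.0490), against the same empty control libraries. Ifngr2 was called there in 16 of 32 alternatives and Il10rb in 14, with adjusted p-values up to 0.135 and 0.180. No other pathway gene was called there, and the median of the list was -0.19. In miR-21 swim relative to empty swim 0 were called, the smallest p being those of Stat3 (-0.21 ± 0.08) and Ifnlr1 (0.33 ± 0.13). Relative to miR-21 control 0 were called, the smallest p being those of the kinases Jak1 (0.17 ± 0.07) and Jak2 (0.22 ± 0.09), and for the interaction 0, with Ikbke at 2.26 ± 0.75 and Il10rb at -0.41 ± 0.14. At an unadjusted p under 0.05 these 3 comparisons had 1 higher and 1 lower, 5 higher and 1 lower, and 5 higher and 2 lower, of 36 tested. The counts over all tested genes at that p are given above for swimming under the miR-21 vector and for the interaction. They are not given for miR-21 swim relative to empty swim, so its 1 higher and 1 lower have no background beside them.

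A second list of 67 interferon-induced genes outside the 41, of which 63 were tested, had 3 higher (4.76%) and 1 lower (1.59%) in empty swim relative to empty control, against 4.18% and 3.28% of all tested genes. Psme1, a subunit of the proteasome activator used in antigen processing, averaged 145 ± 8.38 CPM in empty swim and 101 ± 9.69 CPM in empty control (SD, n = 6 each), with no overlap (0.53 ± 0.08, adjusted p = 0.000513). Ddx60, a helicase, was at 0.50 ± 0.12 (adjusted p = 0.0137) and Gbp9, a guanylate-binding protein, at 0.38 ± 0.11 (adjusted p = 0.0363). Gbp10, a close relative of Gbp9, went the other way at -1.40 ± 0.39 (adjusted p = 0.0302), averaging 1.41 ± 0.60 CPM in empty swim and 3.73 ± 2.89 CPM in empty control. The sources used here do not say how reads that match both were counted. Psme1 was also called lower in miR-21 swim, at 106 ± 11.6 CPM (SD, n = 5), relative to the same empty swim libraries (-0.46 ± 0.09, adjusted p = 0.00375), and in the interaction (-0.53 ± 0.12, adjusted p = 0.0395). Its level in miR-21 control was 106 ± 12.6 CPM, so that empty swim is the group that stands above the others. The list had 0 called with the miR-21 vector without swimming (Ms4a4c at -2.18 ± 0.62 and Slfn8 at -0.93 ± 0.27 had the smallest p, with 23 lower and 0 higher at an unadjusted p under 0.05, and 58 of 63 below 0). With swimming under the miR-21 vector 0 were called (Sp100 at 0.26 ± 0.07 and Ddx60 at 0.39 ± 0.13, 14 higher and 0 lower at an unadjusted p under 0.05, 60 of 63 above 0). For both comparisons, the counts over all tested genes at that p are given above. The median under the empty vector with swimming was -0.04, unlike the 0.14 of the 39 members, and no test of that difference was made.

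**Figure D4:**
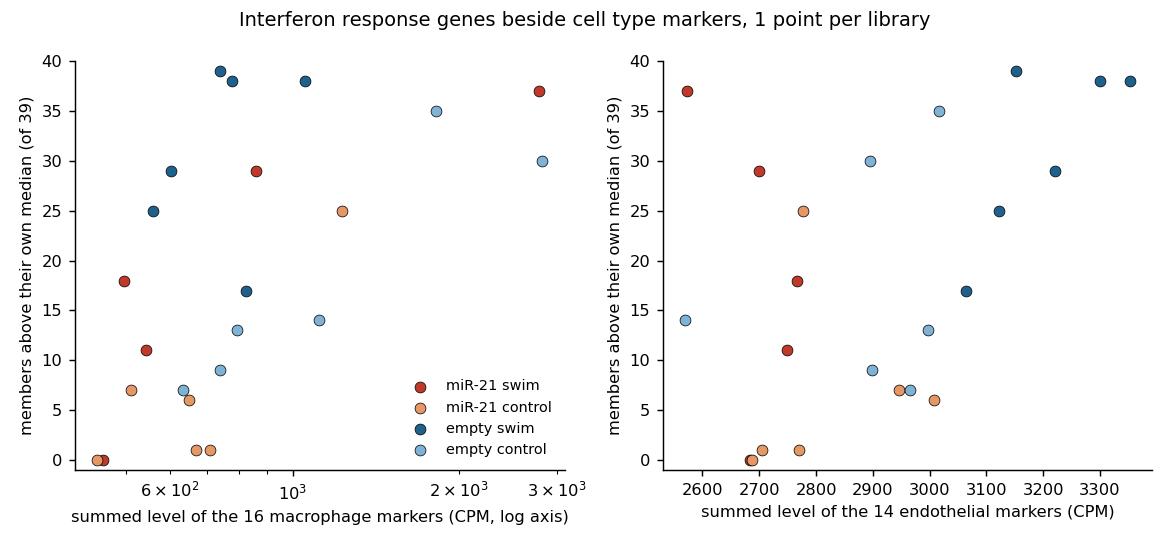
Number of the 39 members above their own median in each library (vertical axis) against the summed CPM of 16 macrophage markers (left, log axis) and of 14 endothelial markers (right), 1 point per library and coloured by group. The empty swim libraries hold 17 to 39 members above their median at 559 to 1054 CPM of macrophage markers, and empty swim libraries lie at the right of the endothelial panel.

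Markers of other cells were present in all groups. Plasmacytoid dendritic cells, the main makers of type I interferon, were near the floor by their defining markers: Siglech reached at most 2.07 CPM and was at 0 in 1 library, Ccr9 was at 0 in 11 and Klk1 in 19, while the sum of the 6 listed markers (1066 to 2227 CPM) comes from genes that heart tissue also expresses. The summed T and NK cell markers were 6.34 to 33.4 CPM in miR-21 swim, 4.91 to 25.2 in miR-21 control, 4.08 to 14.7 in empty swim and 5.43 to 49.5 in empty control. Those of B cells were 2.50 to 64.7 CPM in miR-21 swim, 3.29 to 7.67 in miR-21 control, 2.45 to 6.14 in empty swim and 3.82 to 21.3 in empty control. Mesothelial markers summed to 5.52 to 207 CPM in miR-21 swim, 6.41 to 28.6 in miR-21 control, 8.03 to 14.1 in empty swim and 8.71 to 47.2 in empty control, and adipocyte markers to 836 to 1431 CPM over all groups. The adipocyte sum comes mostly from Fabp4 (585 to 893 CPM, also in the endothelial list) and Plin4 (222 to 592 CPM), while Adipoq ran from 0 to 27.0 CPM, Cidec from 0 to 23.9 and Plin1 from 0 to 12.2, so the sum does not show how the 3 libraries differ. The cardiomyocyte markers that define the labelled tissue summed to 59616 to 122035 CPM, lowest in miR-21 swim replicate 2. All of these lists, and the fibroblast markers, overlap between swim and control libraries of each vector, apart from the endothelial markers under the empty vector.

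Among protein-coding genes ordered by start, 11 members lie next to another member on the chromosome, in 6 pairs: Rsad2 and Cmpk2, Psmb9 and Tap1, Tap1 and Psmb8, Ifit2 and Ifit3, Gbp7 and Gbp3, and Oasl2 and Oasl1. The neighbours of Cmpk2, Ifit2 and Gbp3, which rose with swimming under the empty vector, were not called there, with Rsad2 at 0.15 ± 0.15, Ifit3 at 0.21 ± 0.20 and Gbp7 at 0.37 ± 0.14, though the differences within pairs were not tested. In miR-21 swim relative to empty swim, Rsad2 was at -0.37 ± 0.15 beside the called Cmpk2. Stat2, Ifi27, Rtp4 and Eif2ak2 overlap a protein-coding gene outside the list, so part of their reads is uncertain where counting ignored strand. Overlap was checked only between genes next to each other in that order. The Ifit, Oas and Gbp families hold close copies, and how reads that match several copies were counted is not stated, so their levels are uncertain in the same way.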

How the data were processed

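RNA was sequenced from hearts, with TRIzol extraction and a stranded mRNA kit per the labels' protocols. The authors deposited raw counts per gene and library, whole numbers not normalised, and FPKM values (scaled to transcript length and library size) of the same libraries. The authors' 4 comparison tables hold a log2 fold change, a p-value and a q-value per gene, from a tool that is not named there. The build is GRCm39 per the submitters' processing notes. The sources used here do not name the aligner or counter. The 46 other per-sample columns of the comparison tables were not used. Replicate 6 of miR-21 swim was not analysed here.

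Groups came from the labels. The counts of all 23 libraries entered 1 edgeR 4.0.16 quasi-likelihood model (filterByExpr, TMM, robust), and p-values were adjusted over all 13501 tested genes. CPM values are TMM-normalised. FPKM served only to order levels between genes. The members, lists and tests were chosen with earlier results of these data known. Full values are given for called members and the 3 of smallest p per comparison, and list genes are named if called (at most 6, or the 2 of smallest p). Score columns average centred log2 CPM (prior count 2) of markers, leukocyte lists together. Promoters, the miR-21 sequence and neighbours come from RefSeq and an annotation of an earlier build than the counts. The model was tested on simulated data. Alternatives used DESeq2 1.42.0, limma 3.58.1, other scaling and filters, covariates and left-out libraries (R 4.3.3, Python 3.11.15). No 2 of the 253 pairs of libraries held identical counts.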

Additional observations from a re-analysis of the deposited data

Results flagged for a closer look

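Of 156 groups of library values (39 members in 4 groups), 12 held 1 library far from the rest of its group on the log2 CPM scale, where chance gives about 1 in 20. Of the 12, 5 were high values of empty control replicate 2, 1 of the 3 libraries with the highest adipocyte and macrophage markers: Irf1 at 69.1 CPM (next 47.9), Psmb9 at 27.9 (next 13.4), Gbp2 at 79.4 (next 36.5), Iigp1 at 136.8 (next 56.2) and Igtp at 77.0 (next 28.7). Another 3 were high values of miR-21 control replicate 6, which had the most macrophage markers of its group: Irf1 at 48.7 CPM (next 39.7), Oasl2 at 28.1 (next 22.5) and Trim30a at 29.7 (next 23.4). The low values were Ifit2 in miR-21 swim replicate 5 at 22.2 CPM (next 30.6), Ifit2 in miR-21 control replicate 3 at 21.6 (next 23.9), Herc6 in miR-21 control replicate 2 at 6.75 (next 10.1) and Irf9 in empty swim replicate 3 at 31.1 (next 37.9).

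The effect of swimming on Psme1, a gene of the second list, differed between the vectors, with an interaction of -0.53 ± 0.12 on the log2 scale (SE, adjusted p = 0.0395 with edgeR). It was called in 16 of 32 alternatives, at adjusted p-values of 0.00285 to 0.153.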

How the results depend on the processing

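Each result was recomputed under 32 alternatives, 23 of which left out 1 library. Among the called members and the 3 of smallest p in each comparison, none changed direction in any of them. The direction of the other members over the alternatives was not checked. With swimming under the empty vector, Xaf1 stayed called in 32, Cmpk2 in 31, Eif2ak2 and Ifit2 in 15 and Gbp3 in 11. The count of 5 higher became 13 with limma voom with quality weights, 13 with the leukocyte score and 14 without the 3 libraries of highest adipocyte score. With 1 library left out it ran from 2 to 7. It was 2 without empty control replicate 3, 4 or 6, empty swim 1, 2, 4 or 5, miR-21 control 1 to 5 or miR-21 swim 4, and 3 without empty control 1, empty swim 6 or miR-21 control 6. Without miR-21 swim 2, 1 member (Isg20) was called lower, so the lower count ran from 0 to 1. The title series term, estimated only within miR-21 swim, moved the median to 0.56 there. It moved the median to 0.47 with swimming under the miR-21 vector, where 10 members were then called higher. In that comparison the higher count ran from 0 to 1 with 1 library left out. For miR-21 without swimming, the count of 0 lower became 1 with DESeq2 (Zbp1), 2 with only the 2 groups (Parp14 and Rtp4) and 1 with the title series term (Rtp4), and ran from 0 to 6 with 1 library left out. For miR-21 with swimming, the count of 3 lower became 13 with limma voom with quality weights, 1 with only the 2 groups, 7 with the title series term, 14 with the leukocyte score and 13 without the 3 libraries, and ran from 2 to 9. For the interaction, DESeq2 called 1 higher and 1 lower, and the median of 0.11 became -0.17 with limma voom with quality weights, -0.24 with the leukocyte score and -0.23 without the 3 libraries. The share of all genes called in each alternative is not given here, so these counts have no background beside them. The causes of the changes in count and median were not tested. No paired analysis was possible because the sample titles share no replicate numbers between groups.

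The lowest count of a member in any library was 21 (Zbp1), then 31 (Oasl1) and 39 (Isg15).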
